A study of Mus musculus with 16 samples.

Results

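The change with age in the transgenic prostate was followed in the dorsal-lateral prostate (DLP) of TRAMP mice, which are the dorsal and lateral lobes of the gland. TRAMP mice carry SV40 T antigen under a rat probasin promoter, which is active in prostate epithelium. The comparison rested on 6 of the 16 Illumina bead arrays of the study, 3 from mice at 28 weeks of age and 3 from mice at 16 weeks. At each age 1 array came from mice given vehicle, 1 from mice given AGN, an extract of the root of Angelica gigas Nakai, and 1 from mice given D/DA, the pyranocoumarins of that root. The arrays were chosen by their labels as TRAMP DLP of these 3 treatments, and each 28-week array was paired with the 16-week array of the same treatment. Wild-type C57BL/6 DLP at the same ages, 1 array each, was kept out of the fit and is set beside it, and 8 arrays of neuroendocrine carcinomas (NECa) and wild-type whole prostates entered a fit for 1 further comparison. No doses were given in the labels. The design text gives between 10 and 14 mice for each AGN and D/DA group, but the labels do not say whether the RNA on an array was from 1 mouse or from a pool. The p-values therefore measure the spread between these arrays. No treatment has a replicate at either age, so this spread holds array noise together with any dependence of the age change on treatment. Limma also draws much of each probe's spread from the other probes. With 1 array per treatment and age, age cannot be told apart from any batch in which the tissue was collected or hybridised.

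T antigen binds and inactivates the retinoblastoma and p53 proteins, which frees the E2F factors that switch on genes of DNA synthesis. The p16 protein made from Cdkn2a acts upstream of the retinoblastoma protein, and its messenger is known to accumulate where that protein is lost. The luminal cells of the dorsal and lateral lobes secrete probasin, transglutaminase and protease inhibitors, largely under the androgen receptor, and this output is known to decline as TRAMP lesions progress. Expression is given below as the deposited intensity of a gene's brightest probe, and change as the mean log2 difference of 28 minus 16 weeks over the 3 pairs with its standard error. An array's median intensity lay between 151 and 159 on the 8 DLP arrays, so a probe near that level is close to background and its log2 differences are compressed.

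Limma called 414 of 25697 probes at a Benjamini-Hochberg adjusted p under 0.05, which is 1.61% of those tested. Of these, 175 probes (0.681%) were higher and 239 (0.93%) lower at 28 weeks. By the brightest probe of each gene, 139 of 16593 genes rose (0.838%) and 175 fell (1.05%). All 139 and all 175 had the same sign in each of the 3 pairs. Over all genes 19.3% were higher and 16.6% lower in all 3 pairs. The intensities at both ages did not overlap for 120 and 167 of the called genes, against 16.9% of all genes. These genes were called on the same pairs, so both agreements follow largely from the calling and are not independent support for it. The median size of the change was 0.49 among genes that rose and 0.59 among genes that fell, and 11 and 31 of them reached 2-fold. When the vehicle pair was left out 1070 probes were called, against 404 without the AGN pair and 402 without the D/DA pair. The spread of differences over all probes was widest in the vehicle pair, with a standard deviation of 0.231 on the log2 scale against 0.155 for AGN and 0.176 for D/DA.

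The tissue label was set against its markers, and the arrays also held markers of other tissues. At 16 weeks the median intensity of seminal vesicle markers was 11671, 12714 and 12906 in vehicle, AGN and D/DA. It was 2294.5, 1933 and 1454 for skeletal muscle markers and 1827, 1946 and 2195 for prostate secretory genes. The changes of seminal vesicle and skeletal muscle genes are given further on. Of the 18 luminal epithelial markers measured, 0 were called with age (median change -0.011), and Krt8, a keratin of luminal cells, lay between 6277 and 7440 on the 6 TRAMP arrays. Cdh1, which encodes E-cadherin of epithelial junctions, had intensities of 2228, 2099 and 2242 at 16 weeks and 1678, 1851 and 1672 at 28 weeks in vehicle, AGN and D/DA, and did not pass (-0.34 ± 0.10, limma adjusted p = 0.143). At an unadjusted p under 0.05, limma found 5 luminal markers lower and 0 higher, against 6.83% and 6.96% of all genes. None of the 23 neuroendocrine markers measured was called, and 3 were lower at an unadjusted limma p under 0.05, against 6.83% of all genes. The median intensity of this list lay between 150 and 154.5 on the TRAMP arrays, close to background, where a change is compressed. Chga, the secretory granule protein of neuroendocrine cells, stayed between 137 and 146 on every TRAMP array, at the level of background. Syp, a synaptic vesicle protein, read 243, 243 and 181 at 16 weeks and 226, 203 and 189 at 28 weeks (-0.10 ± 0.07, limma adjusted p = 0.637).

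Among regulators of the cell cycle, Cdkn2a on chromosome 4, which encodes the inhibitor p16 and the p53 activator ARF, showed the third largest rise by the naming rule. Its intensity was 377 in vehicle, 423 in AGN and 437 in D/DA at 16 weeks, and 1438, 1365 and 1379 at 28 weeks. Each of the 28-week arrays stood far above each of the 16-week arrays, and the 3 treatments lay close together at both ages. The change was 1.76 ± 0.09 (limma adjusted p = 3.1e-05), and both of its 2 probes were called. Wild-type DLP read 147 at 16 and 135 at 28 weeks, at background, and the age change in TRAMP exceeded that in wild type by 1.89 ± 0.17 (limma interaction adjusted p = 0.000293).

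Few genes of DNA replication passed singly. Of 28 measured, 1 rose and 0 fell, against 0.838% and 1.05% of all genes. In all 3 pairs 21 were higher, against 19.3% of all genes, with a median change of 0.21 against 0.0057 over all genes. The gene that rose was Pcna, the sliding clamp of DNA polymerase, at 0.32 ± 0.06 (limma adjusted p = 0.0256). Mcm5, a subunit of the replicative helicase, read 2019, 2144 and 2042 at 16 weeks and 2751, 2390 and 2636 at 28 weeks. The ages did not overlap, yet the change of 0.32 ± 0.10 did not pass (limma adjusted p = 0.171). Tyms, which makes thymidylate, stood at 0.42 ± 0.09 (limma adjusted p = 0.051), Mcm10 at 0.37 ± 0.08 (0.0605) and Rrm1, of ribonucleotide reductase, at 0.36 ± 0.09 (0.0898). In wild type the probes of Mcm5, Tyms, Mcm10 and Rrm1 lay between 211 and 359 at both ages, and the median of the list changed by -0.097. No replication gene was called in the interaction.

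Mitotic genes showed a similar picture, with 1 of 29 called higher with age, against 0.838% of all genes, and none in the interaction. In all 3 pairs 19 were higher, against 19.3% of all genes, with a median change of 0.13. Top2a, the topoisomerase that untangles sister chromatids, read 364, 385 and 334 at 16 weeks and 491, 481 and 461 at 28 weeks. All 28-week arrays were above all 16-week arrays, and the rise was 0.41 ± 0.07 (limma adjusted p = 0.0252). Prc1, of the central spindle, changed by 0.42 ± 0.10 (limma adjusted p = 0.0607) and Cenpa, the centromeric histone, by 0.39 ± 0.10 (0.114); both missed the threshold. Ezh2, the polycomb methyltransferase, read 345, 294 and 334 at 16 and 357, 432 and 413 at 28 weeks and did not pass (0.30 ± 0.09, limma adjusted p = 0.185). Of 13 polycomb and DNA methylation genes 0 were called, and 3 were higher at an unadjusted limma p under 0.05, against 6.96% of all genes. Without the AGN pair no replication or mitotic gene was called, and without the vehicle pair 7 and 5 were. Of 19 targets of p53 measured, 1 rose, against 0.838% of all genes. This was Cdkn1a, which encodes the inhibitor p21, at 0.34 ± 0.06 (limma adjusted p = 0.0249), against -0.35 in wild type. Its call rests on 1 of 3 probes and its ages overlapped, since vehicle at 16 weeks read 261 and D/DA at 28 weeks 260.4.

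**Figure D1:**
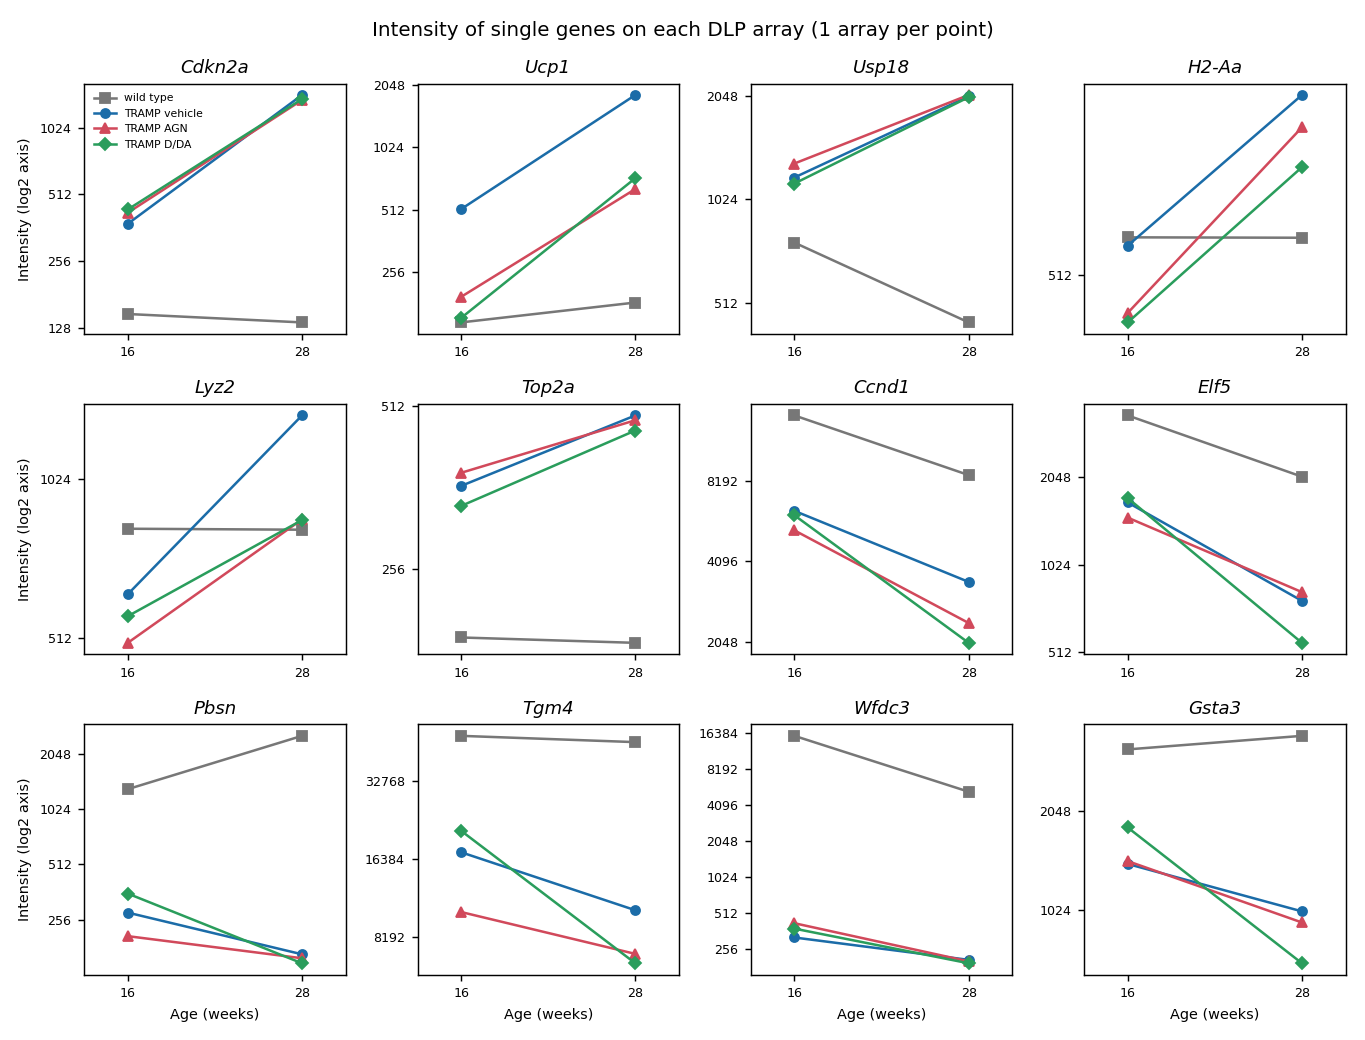
Deposited intensity (log2 axis, a separate range for each gene) of 12 genes on each DLP array against age in weeks, with 1 array per point and a line joining the ages of 1 treatment. Cdkn2a lies between 377 and 437 at 16 weeks and between 1365 and 1438 at 28 weeks in TRAMP, while wild type stays at 147 and 135.

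Interferon response genes were the largest set of list members that rose. Of 39 measured, 12 rose and 0 fell at 28 weeks, which is to be read against 0.838% of all genes, and the median change was 0.25 in TRAMP and -0.16 in wild type. Usp18, the protease that removes ISG15 from proteins and restrains the interferon receptor, read 1186, 1303 and 1139 at 16 weeks and 2045, 2064 and 2033 at 28 weeks. The ages were clearly apart, at 0.76 ± 0.09 with 3 of 3 probes called (limma adjusted p = 0.00373). In wild type it went from 766 to 449, and the difference of the changes was 1.53 ± 0.18 (limma interaction adjusted p = 0.00143). Oas2, a sensor of double-stranded RNA, rose by 0.63 ± 0.06 (limma adjusted p = 0.00127) from between 150 and 177 to between 228 and 277, so its 16-week level was near background. Gbp2, a guanylate-binding protein that attacks the membranes of pathogens, rose by 0.67 ± 0.08 (limma adjusted p = 0.00406), on 1 of 3 probes.

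Irf7, the transcription factor that amplifies type I interferon, read 327, 356 and 296 at 16 weeks and 469, 545 and 459 at 28 weeks (0.59 ± 0.07, limma adjusted p = 0.00398). The 28-week arrays were all higher, whereas the wild-type pair fell from 321 to 181. The 8 other members called were Cxcl9, Dhx58, Gbp3, Ifi47, Ifit3, Igtp, Oas1g and Trim30a, with changes from 0.36 for Ifi47 to 0.63 for Cxcl9, a chemokine that attracts T cells. Isg15, the ubiquitin-like protein that Usp18 removes, read 796, 1100 and 905 at 16 weeks and 1665, 1335 and 1253 at 28 weeks. Its ages did not overlap, but the change of 0.61 ± 0.14 did not pass (limma adjusted p = 0.0597). For 12 of the 39 members the age change in TRAMP was higher than in wild type in the interaction, against 0.796% of all genes. Only 7 of these were among the members that rose with age. Oas and Gbp genes belong to families of similar sequence, in which a probe may read more than 1 member. With all probes of a gene averaged 7 members were called higher, and without the vehicle pair 19.

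The promoters of these genes were searched for the core of the interferon-stimulated response element, GAAANNGAA on either strand, the site bound by interferon regulatory factors and the STAT complex of type I interferon. The windows of 250 bases before to 50 bases after the start came from RefSeq, build GRCm38.p6, which held a promoter for 9 of the 12 members that rose and for 19 of the 27 that were not called. The core was present in 7 of the 9 and in 13 of the 19, against 9.76% of the 27025 genes in the table. The stretches with several matches are shown for Ifit3, which has 3, and for Oas1g and Gbp3, which each have an overlapping pair, with Gbp2 as an example of a single match. They read 5′ to 3′ along the gene, with the core in capitals. The windows are chr19:34583345-34583464 on the plus strand for Ifit3, chr5:120887565-120887684 on the minus strand for Oas1g, chr3:142559947-142560066 on the plus strand for Gbp3 and chr3:142620549-142620668 on the plus strand for Gbp2.
Ifit3: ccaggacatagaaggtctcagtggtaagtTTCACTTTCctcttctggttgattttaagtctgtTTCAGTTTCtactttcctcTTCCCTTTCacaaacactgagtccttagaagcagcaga
Oas1g: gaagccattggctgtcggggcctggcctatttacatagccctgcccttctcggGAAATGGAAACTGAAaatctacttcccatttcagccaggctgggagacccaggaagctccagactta
Gbp3: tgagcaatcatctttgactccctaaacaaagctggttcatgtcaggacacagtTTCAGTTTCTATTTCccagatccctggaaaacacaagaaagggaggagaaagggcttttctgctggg
Gbp2: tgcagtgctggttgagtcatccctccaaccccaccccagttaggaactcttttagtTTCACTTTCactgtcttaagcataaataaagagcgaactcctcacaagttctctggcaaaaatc
The matches begin 155 bases before the start for the first of Ifit3, 18 for the first of Oas1g, 44 for the first of Gbp3 and 58 for Gbp2. A match is a description of the letters and not evidence of binding, and it was common among the members that were not called as well.

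The level of these 4 genes on the arrays followed the same course. Ifit3, which binds viral RNA with its partners, read 967, 1253 and 892 at 16 weeks and 1469, 1516 and 1421 at 28 weeks. Oas1g, a synthetase activated by double-stranded RNA, read 804, 1031 and 907 at 16 weeks and 1580, 1308 and 1275 at 28 weeks. Gbp3 read 267, 239 and 237 at 16 weeks and 360, 358 and 318 at 28 weeks. Gbp2 read 565, 592 and 477 at 16 weeks and 837, 974 and 783 at 28 weeks. In none of the 4 did the ages overlap, and in wild type Ifit3 went from 792 to 437, Oas1g from 489 to 255, Gbp3 from 249 to 237 and Gbp2 from 439 to 524. Of the 12 members that rose in TRAMP, 2 had the same sign in wild type.

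Antigen presentation genes moved in the same direction. Of 20 measured, 8 rose and 0 fell, against 0.838% and 1.05% of all genes. The median change was 0.31 in TRAMP and -0.055 in wild type, and 18 were higher in all 3 pairs, against 19.3% of all genes. H2-Aa, a chain of MHC class II, read 557, 460 and 448 at 16 weeks and 857, 781 and 697 at 28 weeks, with no overlap (0.67 ± 0.08, limma adjusted p = 0.00373). The wild-type pair read 571 and 570, but H2-Aa was not called in the interaction (0.68 ± 0.16). H2-Ab1, its partner chain, rose by 0.62 ± 0.11 (limma adjusted p = 0.021), and the class I chain H2-D1 by 0.57 ± 0.10 (0.0161). The remaining 5 were H2-Eb1 and Cd74 of class II, H2-K1 of class I, the class I regulator Nlrc5 and the protease Ctss. The call of H2-K1 rests on 1 of 2 probes. In the interaction only 2 of the 20 were called higher in TRAMP, H2-K1 and Nlrc5, against 0.796% of all genes. MHC genes are similar in sequence and a probe may read more than 1. B2m, the invariant class I chain, read 27388, 31644 and 31539 at 16 weeks and 25710, 24216 and 26398 at 28 weeks, and did not pass (-0.24 ± 0.09, limma adjusted p = 0.256). Without the AGN pair 3 members were called.

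Some markers of myeloid cells were higher at 28 weeks as well. Of 22 macrophage and myeloid markers measured, 4 rose and 1 fell, against 0.838% and 1.05% of all genes, and 17 were higher in all 3 pairs, with a median change of 0.22 in TRAMP and 0.031 in wild type. Their mean log2 level was between 8.30 and 8.34 at 16 weeks and between 8.45 and 8.71 at 28 weeks, highest in vehicle. Lyz2, the lysozyme of macrophages, read 620, 502 and 564 at 16 weeks and 1352, 860 and 857 at 28 weeks (0.84 ± 0.11, limma adjusted p = 0.00426). All 28-week arrays were higher, and wild type read 825 and 822, but Lyz2 was not called in the interaction (0.84 ± 0.21). Of the 22 markers 1 was called there, C1qb. The complement genes C1qb, at 0.62 ± 0.08 (limma adjusted p = 0.00523), and C1qc, at 0.47 ± 0.08 (0.0151), which are made by tissue macrophages, also rose. So did Lyz1, on 1 of 3 probes, and that probe may read Lyz2. The member that fell was Cd52, a surface peptide that is also made in quantity by epithelium of the male tract, from between 15342 and 22999 to between 7462 and 13419 (SE of the log2 change 0.17, limma adjusted p = 0.0182). The granulocyte markers S100a8 and S100a9 lay between 130 and 150 on all 6 arrays, at background. Of 23 T and NK cell markers 1 rose, Cd8b1 at 0.33 ± 0.06 (limma adjusted p = 0.0335), against 0.838% of all genes. None of 16 B and plasma cell markers was called. The median intensity on the TRAMP arrays was close to background for both lists. It lay between 147 and 155 for T and NK cells and between 134 and 146 for B and plasma cells. The part of myeloid cells in the interferon and antigen presentation values was not tested, and in bulk tissue more cells of a type and more RNA per cell cannot be told apart. With the myeloid level as a covariate, which age and treatment explain to 86.0%, 4 antigen presentation genes were called.

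**Figure D2:**
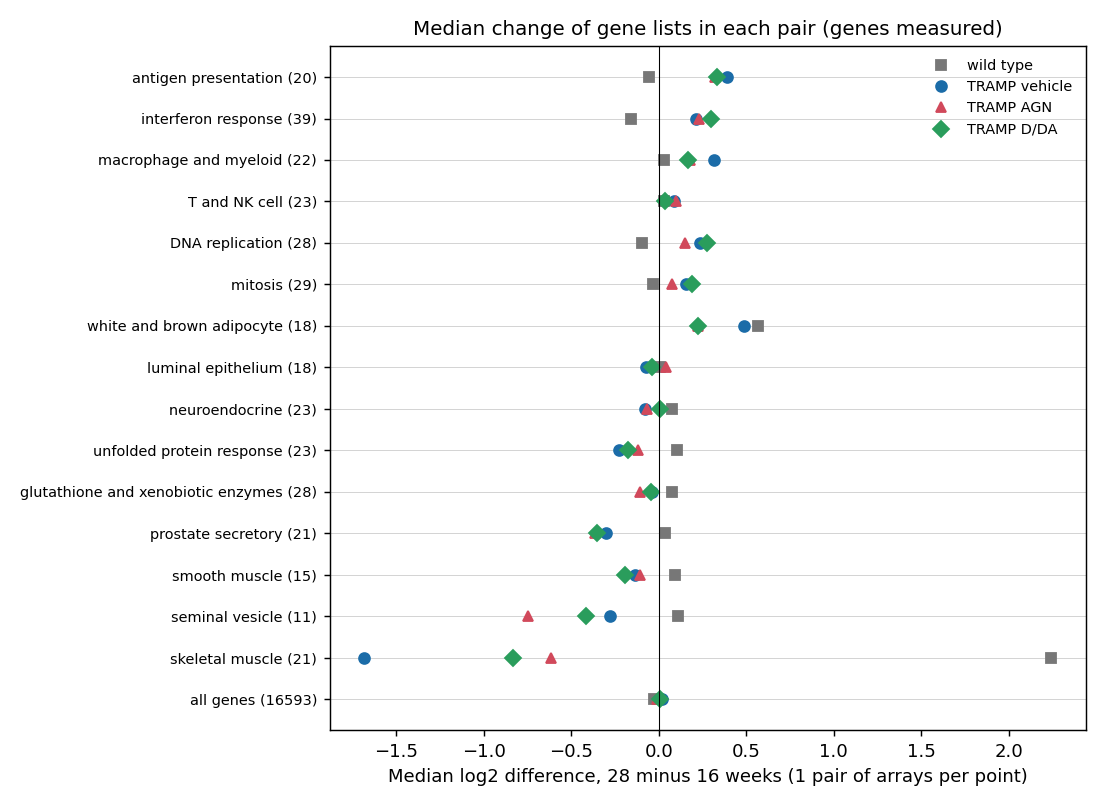
Median log2 difference of 28 minus 16 weeks over the measured genes of 15 lists and of all genes, with 1 point per pair of arrays and the number of genes in brackets. Interferon response lies between 0.21 and 0.30 in the TRAMP pairs and at -0.16 in wild type, and skeletal muscle lies between -1.68 and -0.61 in TRAMP and at 2.24 in wild type.

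Genes of fat cells were among the largest rises. Of 18 adipocyte markers measured, 8 rose and 0 fell, against 0.838% and 1.05% of all genes. Ucp1, the uncoupling protein that makes heat in brown fat, read 514, 194 and 154 at 16 weeks and 1825, 643 and 725 at 28 weeks. Each pair rose and the ages did not overlap (1.93 ± 0.10, limma adjusted p = 3.1e-05). Wild type stayed near background at 146 and 182, and the difference of the changes was 1.61 ± 0.20 (limma interaction adjusted p = 0.00186). Cidea, a lipid droplet protein of brown fat, read 742, 306 and 190 at 16 weeks and 2506, 827 and 958 at 28 weeks (1.84 ± 0.14, limma adjusted p = 0.000275).

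Thrsp, a regulator of lipid synthesis, rose by 1.44 ± 0.10 (limma adjusted p = 0.000157), and here the ages overlapped, since vehicle at 16 weeks read 541 and D/DA at 28 weeks 527. Adipoq, the hormone adiponectin, read 854, 590 and 417 at 16 weeks and 2447, 991 and 797 at 28 weeks (1.07 ± 0.13, limma adjusted p = 0.00398). Wild type rose more, from 193 to 1022, and the interaction was -1.33 ± 0.26 (limma adjusted p = 0.0282). Cox8b, a subunit of cytochrome oxidase of brown fat and muscle, rose by 0.57 in TRAMP and by 3.72 in wild type. The median of the list was 0.29 in TRAMP and 0.57 in wild type. The mean log2 level of the list was between 8.05 and 8.68 at 16 weeks and between 8.62 and 9.38 at 28 weeks, highest in vehicle at both ages, and the Fabp4 and Plin1 probes, for defining genes of fat cells, stayed between 123 and 168.

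Of 20 genes of sterol and fatty acid synthesis 3 rose, against 0.838% of all genes. The desaturase Scd1 rose by 0.64 ± 0.10 (limma adjusted p = 0.0129), the carboxylase Acaca by 0.63 ± 0.09 (0.00859) and malic enzyme Me1 by 0.59 ± 0.08 (0.0056). In wild type Scd1 changed by 0.30, Acaca by -0.067 and Me1 by 0.61, and none of the list was called in the interaction. The median of that list was 0.049 and none fell. These enzymes are also abundant in fat cells, and the part of adipose tissue in their rise was not tested. With the adipocyte level as a covariate, which age and treatment explain to 98.0%, 0 genes of the adipocyte, synthesis, interferon and antigen presentation lists were called higher. That fit called only 33 of all probes, 6 higher and 27 lower, against 414 without the covariate. With so few calls anywhere, 0 in a list says little about that list.

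A part of the secretory genes of the prostate fell. Of 21 measured, 7 fell, 1 rose and 13 were not called, against 1.05% and 0.838% of all genes. The median change was -0.35 in TRAMP and 0.034 in wild type. Among the members called, 5 had the same sign in wild type and 3 were called in the interaction. Over the whole list the age change was called higher in TRAMP than in wild type for 4 members and lower for 4. The shares over all genes were 0.796% and 1.48%. Pbsn, the mouse gene of the androgen-regulated secretory protein probasin, read 280, 209 and 355 at 16 weeks and 166, 158 and 149 at 28 weeks. The ages did not overlap, at -0.80 ± 0.12 (limma adjusted p = 0.0115), but the 28-week values were near background and the fall is compressed. Wild type read 1312 and 2557, and the difference of the changes was -1.77 ± 0.26 (limma interaction adjusted p = 0.0058).

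Tgm4, the transglutaminase that clots seminal plasma, read 17432, 10258 and 21091 at 16 weeks and 10424, 7075 and 6511 at 28 weeks. It fell in each pair, although AGN at 16 weeks was slightly below vehicle at 28 weeks (-0.99 ± 0.18, limma adjusted p = 0.0235). Wild type stayed at 48954 and 46305, but Tgm4 was not called in the interaction (-0.91 ± 0.35). Spink1, a trypsin inhibitor of secretory epithelium, read 17503, 22697 and 17937 at 16 weeks and 8635, 6344 and 10280 at 28 weeks, with no overlap (-1.22 ± 0.16, limma adjusted p = 0.00564). In wild type it went from 43654 to 30619, and it was not called in the interaction (-0.71 ± 0.32).

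Wfdc3, a gene of the whey acidic protein family, read 317, 417 and 376 at 16 weeks and 206, 200 and 193 at 28 weeks (-0.88 ± 0.09, limma adjusted p = 0.00192). The wild-type level was much higher, 15509 and 5279, and it fell there too. Wfdc15b, of the same family, fell by 0.86 on the log2 scale and 9530002B09Rik by 0.52. The seventh, Ceacam10, is known in the mouse as a seminal vesicle glycoprotein and behaved like the genes of that organ described further on. The gene that rose was Mmp7, the protease matrilysin, which read 340, 308 and 389 at 16 weeks and 727, 661 and 807 at 28 weeks (1.08 ± 0.08, limma adjusted p = 0.000168). It rose in wild type as well, from 646 to 1655. Without the vehicle pair 13 secretory genes fell, and with all probes of a gene averaged 2 did.

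The promoter of the mouse Pbsn gene is shown as that of a fallen, androgen-regulated gene. It is the gene's own promoter and not the rat fragment of the transgene. It was read from RefSeq build GRCm38.p6 at chrX:77853451-77853750 on the minus strand, from 250 bases before the start to 50 after. The letters AGAACA, a common form of the hexamer bound by 1 androgen receptor molecule, were searched on both strands and are in capitals.
Pbsn: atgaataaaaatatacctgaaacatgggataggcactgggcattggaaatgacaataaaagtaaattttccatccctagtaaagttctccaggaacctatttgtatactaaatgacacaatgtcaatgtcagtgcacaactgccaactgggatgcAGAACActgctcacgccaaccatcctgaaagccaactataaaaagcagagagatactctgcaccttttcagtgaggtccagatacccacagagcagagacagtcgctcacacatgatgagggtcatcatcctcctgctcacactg
The single match lay 95 bases before the start. These letters were present in 5 of the 6 fallen secretory genes with a promoter in the table, in 4 of 8 members that were not called and in 21.3% of all 27025 genes, and the window of Tgm4 held 0.

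Enzymes that conjugate or modify foreign compounds fell in part. Of 28 glutathione and xenobiotic enzymes, 5 fell and 1 rose, against 1.05% and 0.838% of all genes. Gsta3, a glutathione transferase, read 1417, 1445 and 1830 at 16 weeks and 1015, 939 and 705 at 28 weeks (-0.83 ± 0.15, limma adjusted p = 0.024). The ages did not overlap, 1 of its 2 probes was called, and wild type read 3167 and 3483. Gstm2 fell by 0.58 on the log2 scale with 3 of 3 probes called, Gstm1 by 0.50, the oxidase Cyp4b1 by 0.58 and the carbonyl reductase Cbr2 by 0.66. The member that rose was Cyp2e1, an oxidase of liver and fat, by 1.08 ± 0.12 (limma adjusted p = 0.00231), and it rose in wild type by 1.59. The median over the list was -0.062. Without the AGN pair 2 of these enzymes fell.

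In the unfolded protein response 3 of 23 genes fell and 0 rose, against 1.05% and 0.838% of all genes. Ero1b, an oxidase that forms disulphide bonds in secretory cells, read 403, 407 and 408 at 16 weeks and 251, 235 and 274 at 28 weeks. The 3 treatments agreed closely at 16 weeks and the ages did not overlap (-0.68 ± 0.07, limma adjusted p = 0.00217). Chac1, which degrades glutathione under stress, showed a log2 change of -0.76 (limma adjusted p = 0.00949), and for the asparagine synthetase Asns it was -0.62 (0.00859). In wild type both stood higher at 28 weeks, and the interaction was -1.27 ± 0.23 for Chac1 (limma adjusted p = 0.0199) and -0.90 ± 0.18 for Asns (0.0335). The median of the list was -0.18 in TRAMP and 0.11 in wild type, and 14 genes were lower in all 3 pairs, against 16.6% of all genes.

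Among the remaining genes with the largest rises, Ctse, the aspartic protease cathepsin E, read 909, 662 and 983 at 16 weeks and 2456, 1956 and 2156 at 28 weeks (1.38 ± 0.10, limma adjusted p = 0.000274). Wild type rose further, from 208 to 1202. Ifi27l2a, a small interferon-inducible membrane protein that was outside the interferon list, rose by 1.30 ± 0.13 (limma adjusted p = 0.00195), and by 1.01 in wild type. Hp, the haemoglobin scavenger haptoglobin, rose by 1.17 ± 0.12 with 3 of 3 probes called (limma adjusted p = 0.00195), and went from 173 to 489 in wild type. Sprr1a, of the cornified envelope, rose by 1.09 and the membrane protein gene Tmem45b by 0.96, with 2.43 and 1.59 in wild type. Pparg, the nuclear receptor of fat cell and urothelial differentiation, rose by 0.72 ± 0.09 (limma adjusted p = 0.00373), on 1 of 3 probes. It rose by 1.14 in wild type and was the 1 gene called among 10 urothelial markers, against 0.838% of all genes.

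Of the other lists, 3 of 19 complement and acute phase genes rose, Hp with C1qb and C1qc, and 1 fell, the siderophore-binding Lcn2 (-0.57 ± 0.10, limma adjusted p = 0.016). Over all genes 0.838% rose and 1.05% fell. Of 18 glycolysis and hypoxia genes 2 fell, the aldolase Aldoa by 0.55 and the glucose transporter Slc2a1 by 0.41 on the log2 scale. Aldoa is abundant in muscle and its change differed from wild type by -1.45 ± 0.19 (limma interaction adjusted p = 0.00259). None was called of 22 genes of oxidative phosphorylation, 26 of collagen and matrix, 13 basal, 15 smooth muscle, 18 fibroblast, 17 endothelial, 14 mast cell and granulocyte, 7 erythroid, 11 nerve, 8 mesothelial and 9 ductus deferens and epididymis markers. At an unadjusted p under 0.05 limma found 8 collagen and matrix genes higher and 4 lower, against 6.96% and 6.83% of all genes. It also found 7 smooth muscle and 5 endothelial markers lower, and 0 of the mesothelial, ductus deferens and epididymis markers changed. The median intensities of these last lists and of the mast cell and granulocyte and erythroid lists were close to background. They lay between 133.8 and 171.5 on the TRAMP arrays, where changes are compressed. The smooth muscle median was -0.20, with a mean log2 level between 10.65 and 10.85 at 16 weeks and between 10.49 and 10.73 at 28 weeks.

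Skeletal muscle genes were among the largest falls. Of 21 markers measured 14 fell and 0 rose, against 1.05% and 0.838% of all genes, with a median change of -1.09 in TRAMP and 2.24 in wild type. Pvalb, the calcium buffer of fast fibres, read 3856, 3873 and 2322 at 16 weeks and 628, 1711 and 999 at 28 weeks, with no overlap (-1.67 ± 0.23, limma adjusted p = 0.00623). In wild type it went from 154 to 3536. Mylpf, a myosin light chain, fell by 1.42 ± 0.21 (limma adjusted p = 0.0086) and rose by 4.54 in wild type. Myh8, Myl3, Mb, Tnnt3, Pgam2 and Tcap, of the contractile apparatus and its energy supply, fell by 1.29 to 1.51 on the log2 scale. The mean log2 level of the list was between 10.15 and 10.57 at 16 weeks and between 9.02 and 10.00 at 28 weeks in TRAMP, against 8.23 and 10.63 in wild type.

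Seminal vesicle genes also differed between arrays. Svs1, a protein of seminal vesicle fluid, read 11671, 12714 and 12906 at 16 weeks and 4727, 215 and 8432 at 28 weeks, lowest in AGN, and did not pass (-2.60 ± 0.73, limma adjusted p = 0.14). Of 11 markers measured 2 fell, against 1.05% of all genes, Svs2 by 0.68 and Svs5 by 0.42 on the log2 scale. In all 3 pairs 9 were lower, against 16.6% of all genes, with a median of -0.68. Ceacam10 read 1827, 1374 and 2195 at 16 weeks and 687, 195 and 1260 at 28 weeks, again lowest in AGN (-1.68 ± 0.28, limma adjusted p = 0.0151). In wild type it went from 199 to 2042. The mean log2 level of the seminal vesicle list was between 12.42 and 12.49 at 16 weeks and 11.74 in vehicle, 10.11 in AGN and 12.003 in D/DA at 28 weeks.

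The secreted proteins Pip and Prol1 varied over an even wider range. Pip, the prolactin-induced protein, read 4259, 5681 and 3532 at 16 weeks and 137, 2525 and 500 at 28 weeks, so vehicle at 28 weeks was at background (-2.98 ± 0.49, limma adjusted p = 0.015). Wild type went the other way, from 139 to 8414. Scgb1b27, a secretoglobin, fell by 1.98 ± 0.26 (limma adjusted p = 0.0056), on 1 of 2 probes. Mup21, of the major urinary protein family, fell by 1.31 ± 0.08 (limma adjusted p = 7.99e-05), and both genes rose in wild type. The part of skeletal muscle and seminal vesicle tissue in the changes of other genes was not tested. With the muscle level as a covariate, which age and treatment explain to 86.4%, 200 probes were called, 27 higher and 173 lower, and 3 interferon response genes rose. With the seminal vesicle level as a covariate 314 probes were called.

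**Figure D3:**
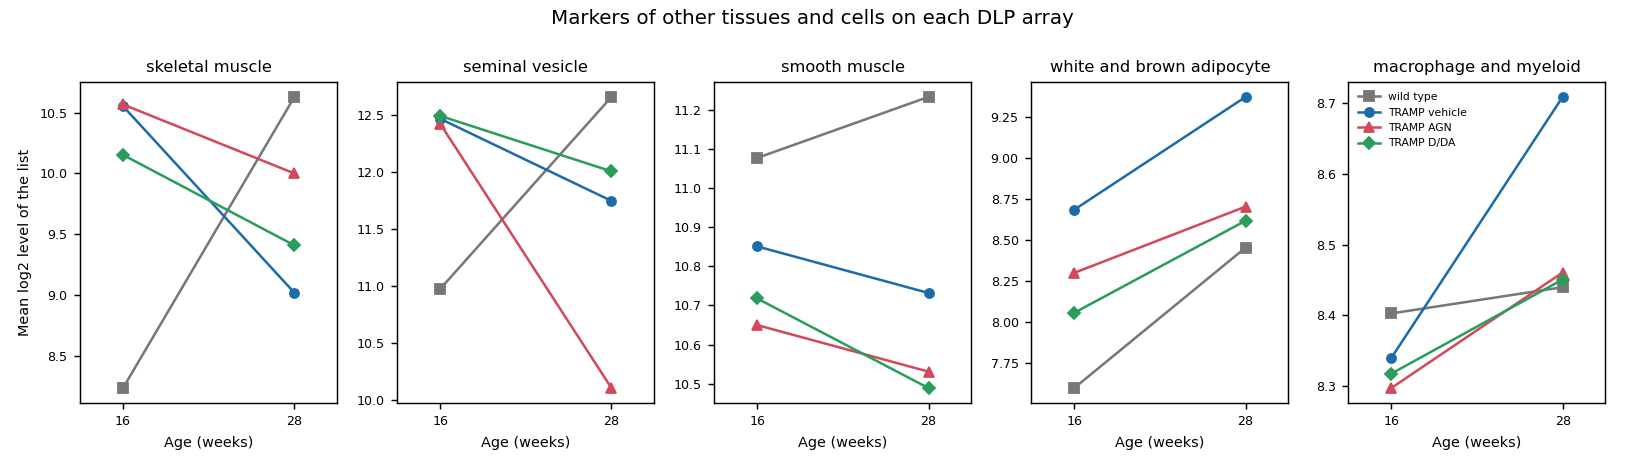
Mean log2 level of the markers of 5 tissues and cell types on each DLP array against age in weeks, with 1 array per point, a line per treatment and a separate vertical range for each list. Skeletal muscle falls from between 10.15 and 10.57 to between 9.02 and 10.00 in TRAMP and rises from 8.23 to 10.63 in wild type.

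Whether the change was particular to the transgenic gland was asked with an interaction term over the 8 DLP arrays. The wild-type pair has no replicate, and its arrays were assumed to vary like those of TRAMP. The age change in TRAMP differed from that in wild type for 523 of 25697 probes (2.04%), and by gene for 377 (2.27%), of which it was higher for 132 (0.796%) and lower for 245 (1.48%). Of the 139 genes that rose with age, 74 had the same sign in wild type and 32 were called in the interaction. Of the 175 that fell, 85 had the same sign and 75 were called. The wild-type differences correlated at -0.14, -0.12 and -0.19 with those of the vehicle, AGN and D/DA pairs over 25697 probes. These 3 pairs correlated among themselves at 0.35 to 0.51. No array is shared between any of these pairs, but probes are not independent replicates and the same tissues contribute to all of them.

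The 6 named genes whose age change was highest in TRAMP relative to wild type all dropped in wild type. Slc26a4, the anion exchanger pendrin, went from 4044 to 324 in wild type and read 686, 1252 and 861 at 16 weeks and 581, 1250 and 1082 at 28 weeks in TRAMP, where it did not pass (0.03 ± 0.11, limma adjusted p = 0.952). The interaction was 3.67 ± 0.22 (limma adjusted p = 5.21e-05). Slc5a8, Nxpe4, Mug1 and Abo followed the same course, with wild-type differences between -2.81 and -2.33 and no call in TRAMP. Pigr, the receptor that carries IgA across epithelium, was the 1 gene of these 6 called with age: it rose in TRAMP, from 721, 881 and 806 to 1281, 1405 and 1299 (0.73 ± 0.09, limma adjusted p = 0.00373), while wild type fell from 1928 to 449. At the low end stood Prol1, Pip, Svs1, Sva, Tnni2 and Pvalb, all secreted proteins or muscle genes that rose by 4.14 to 7.21 in the wild-type pair.

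**Figure D4:**
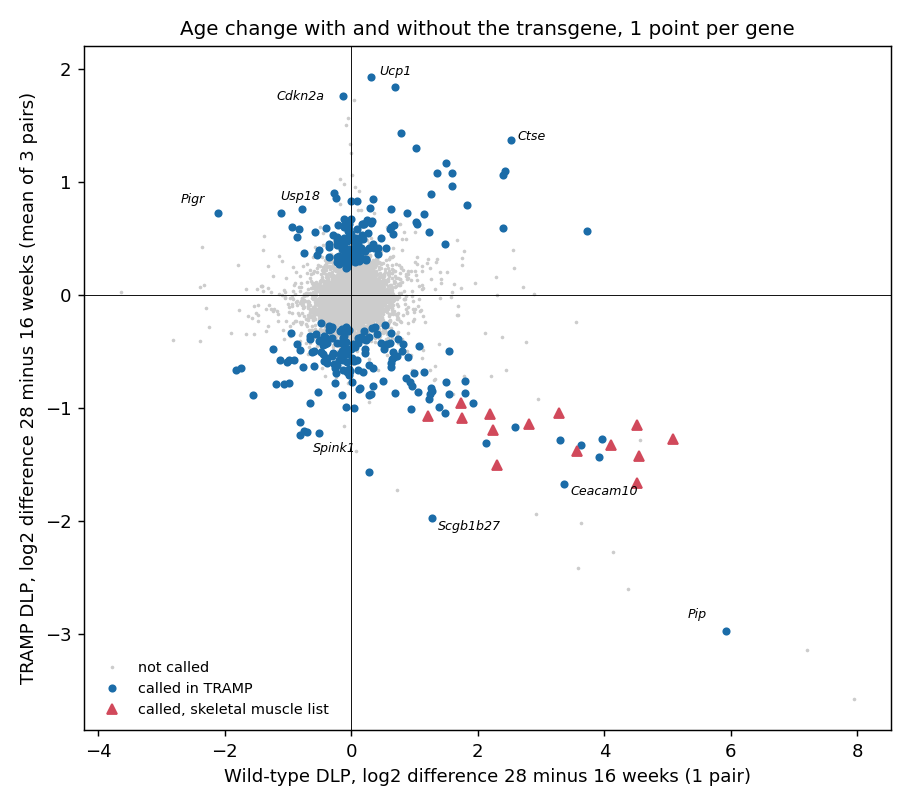
Mean log2 difference of 28 minus 16 weeks in TRAMP DLP over 3 pairs (vertical) against the difference of the single wild-type pair (horizontal), with 1 point per gene and genes called in TRAMP in colour. Cdkn2a, at 1.76 in TRAMP, lies at -0.13 in wild type, and the skeletal muscle genes called all lie low in TRAMP and high in wild type.

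The genes that changed with age were looked up in neuroendocrine carcinomas, in a comparison of 3 carcinomas of vehicle mice with 2 wild-type whole prostates. The 3 carcinomas of AGN mice were in the same fit, where they served only to estimate the spread, and no array is shared with the age comparison. The strain field of the 2 whole prostates names TRAMP although their labels name wild type. Against the prostates, 12.8% of all genes were higher and 18.8% lower in the carcinomas. Of the 175 genes that fell with age 132 (75.4%) were lower in carcinomas, 10 were higher and 33 were not called. Of the 139 that rose with age 30 were higher, 39 (28.1%) lower and 70 not called. The shares over all genes were not matched for intensity: they include many genes near background. The genes called with age had a median intensity of 395 where they rose and 422 where they fell. The genes that fell also include the skeletal muscle and seminal vesicle genes described above. Tgm4 stood at -8.80 and Spink1 at -8.35 on the log2 scale in carcinomas, and Cdkn2a at 2.75 ± 0.19 (limma adjusted p = 6.5e-07). Chga was 3.11 higher in carcinomas, in contrast to its background level in DLP at both ages. Ucp1 and Ctse, which rose with age, stood at -1.48 and -1.80 in carcinomas, and Usp18 and Oas2 were not called there (limma adjusted p = 0.526 and 0.854).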

How the data were processed

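Biotinylated cRNA was hybridised to 16 Illumina mouse bead arrays, per the labels' protocols. The deposited values are linear, normalized probe intensity values, and the submitters' processing notes name lumi, with no version given. How it normalized them is not given in the sources used here. Background was not subtracted to 0, since the lowest intensity on any DLP array was 114 to 122, and the highest was 28114 to 48954. Precision is limited by the number of arrays. A second deposited table, of raw signals, has 32 columns of per-sample values under names that match no label and was left out, so all probes were tested.

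Of 25697 probes, 23978 had 1 symbol in the platform annotation and 1719 were not listed. By Entrez identifier 23962 matched RefSeq GRCm38.p6, and 0 symbols changed. They covered 16593 genes, 4777 with more than 1 probe, and the brightest probe over 16 arrays stood for a gene.

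Log2 values were fitted with limma 3.58.1 in R 4.3.3 (lmFit, eBayes with an intensity trend) as age plus treatment, which is the pairing, on the 6 TRAMP DLP arrays, leaving 2 residual degrees of freedom and a prior of 8.29. The pairing follows the treatment label. A probe was called at a two-sided Benjamini-Hochberg adjusted p under 0.05 over all 25697. Unadjusted, 3206 probes had a p under 0.05. Simulated data were drawn from the fit itself, with independent normal noise of its variances and no dependence of the age change on treatment. There, 193 of 200 probes changed by 0.5 on the log2 scale were recovered, with 23 false calls among 216. For a change of 1 it was 200 of 200, with 45 false calls among 245. Both shares of false calls are above the threshold of 0.05, and the recovery does not describe the spread of the real arrays.

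Named were the 12 highest and 12 lowest called changes with the same sign in the 3 pairs, clones aside, the 6 highest and 6 lowest called interactions, the 3 largest changes of each of 32 lists described, and Pbsn, Tgm4, Chga, Syp, Ezh2, Top2a, Mcm5 and Isg15. Other list members are named where they were called, and Krt8, Cdh1, B2m, Fabp4, Plin1, S100a8 and S100a9 were chosen after their values were seen. The members and the lists were chosen with earlier results of these data known. Alternatives covered the scaling, background, trend, arrays, treatment term, wild-type arrays and marker levels as covariates.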

Additional observations from a re-analysis of the deposited data

Results flagged for a closer look

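The results here are the genes named by the rule whose age change differed between TRAMP and the single wild-type pair in the limma interaction at an adjusted p under 0.05, and gene lists whose median had the same sign in all 3 TRAMP pairs and the opposite sign in wild type. The wild-type pair is 1 array per age. For genes, the values are the log2 age change of TRAMP minus that of wild type, and for lists the median log2 age change of TRAMP alone.

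The difference was 1.61 for Ucp1 and 1.89 for Cdkn2a, both with little change in wild type. Among genes that rose in both, it was -1.15 for Ctse, -1.33 for Sprr1a and -1.33 for Adipoq. Skeletal muscle genes stood at -6.19 for Pvalb, -3.81 for Myh8, -5.34 for Myl3, -5.97 for Mylpf, -4.95 for Mb, -5.43 for Tnnt3, -4.96 for Pgam2, -4.59 for Tcap and -6.36 for Tnni2, and Aldoa at -1.45. Secreted proteins stood at -8.90 for Pip, -10.36 for Prol1, -3.26 for Scgb1b27, -5.03 for Ceacam10, -3.44 for Mup21, -6.98 for Svs1, -6.41 for Sva and -1.77 for Pbsn. Genes with a large fall in wild type stood at 3.67 for Slc26a4, 2.83 for Pigr, 2.78 for Slc5a8, 2.47 for Nxpe4, 2.42 for Mug1 and 2.41 for Abo. The interferon genes Usp18 and Oas2 stood at 1.53 and 0.73, C1qb at 0.83 and Cdkn1a at 0.69. Of the stress genes, Chac1 stood at -1.27 and Asns at -0.90. Genes not called with age in TRAMP itself stood at -2.88 for Krt15, -1.02 for Trp63 and -0.86 for Krt5, which mark basal epithelium, -0.91 for Stmn2, -0.78 for Emcn and -1.30 for Upk3b.

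Of the lists, the TRAMP medians were 0.21 for DNA replication, 0.13 for mitosis, 0.25 for interferon response, 0.31 for antigen presentation, 0.11 for polycomb and DNA methylation and 0.049 for sterol and fatty acid synthesis. They were -0.18 for the unfolded protein response, -0.062 for glutathione and xenobiotic enzymes, -0.35 for prostate secretory genes, -0.68 for seminal vesicle, -1.09 for skeletal muscle, -0.20 for smooth muscle, -0.10 for basal epithelium, -0.056 for endothelium and -0.050 for nerve and Schwann cell. For these lists the difference from wild type was not tested.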

How the results depend on the processing

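The 414 probes called with age became 149 without an intensity trend, 32 with all 16 arrays in one fit, 20 with the wild-type pair included in an additive fit, 50 at a minimum of 2-fold, 200 with skeletal muscle and 7 with smooth muscle as a covariate, and 33 with the adipocyte level, an alternative chosen after seeing the data. Leaving out 1 pair gave between 402 and 1070. Without the replicate block, that is without pairing by treatment, 331 probes were called. Quantile normalization, median centring, normexp background correction, probes above the median level, array weights and the seminal vesicle and, added later, macrophage covariates gave 314 to 545. The share called higher, 42.3%, was 13.5% with the skeletal muscle, 18.2% with the adipocyte and 19.7% with the macrophage covariate. The 523 probes of the interaction became 270 without a trend, 52 with all 16 arrays and 278 at 2-fold, and between 501 and 1938 with 1 pair left out. Of 54 named genes called with age, 54 kept their call under median centring and normexp, 53 under quantile normalization, 27 without a trend, 7 with all 16 arrays, 38 without the block, 8 with the wild-type pair, 14 with the skeletal muscle, 35 with the seminal vesicle and 1 with the smooth muscle covariate. With the skeletal muscle covariate the sign turned for Tmem45b (-0.21), Pip (0.38), Myh8 (0.47), Myl3 (0.0042), Mb (0.058), Tnnt3 (0.0086), Pgam2 (0.32), Tcap (0.087), Prol1 (3.04), Tnni2 (0.35), Cbr2 (0.017) and Krt20 (-0.93). With smooth muscle it turned for Pbsn (0.16), Tgm4 (0.50), Gsta3 (0.33) and Cd52 (0.31), with seminal vesicle for Svs3b (0.91), and with the wild-type pair for Mylpf (0.068), Tnnt3 (0.029) and Tnni2 (0.31). The cause of the turned signs was not tested. Age and treatment together explain 76.3% to 98.0% of these marker levels, and age alone 39.9% to 69.3%. Of the genes that fell with age, 66.9% to 78.9% were lower in carcinomas under the scaling and background alternatives.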

Other observations

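Other gene families were looked at after the values were seen, and their changes are given as values only. Ccnd1, cyclin D1, which drives entry into the cell cycle through the retinoblastoma protein, read 6331, 5354 and 6096 in vehicle, AGN and D/DA at 16 weeks and 3436, 2413 and 2034 at 28 weeks. The ages did not overlap (-1.21 ± 0.13, limma adjusted p = 0.00217), and wild type went from 14391 to 8615. Of the 3 D cyclins measured it alone was called. Of 7 CDK inhibitors measured 4 rose, against 0.838% of all genes: Cdkn2a, Cdkn2b from between 234 and 247 to between 317 and 428, Cdkn2c from between 946 and 1125 to between 1462 and 1490, and Cdkn1a. The call of Cdkn2c rests on 1 of 2 probes. Cdkn2b lies beside Cdkn2a on chromosome 4.

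Some homeobox genes of the Hox clusters, which hold positional identity in the urogenital tract, fell. Of 38 measured 8 fell and 0 rose, against 1.05% of all genes, and 25 of the 38 lay below an intensity of 200, close to background. The 8 were Hoxd9, Hoxd8, Hoxd3, Hoxb2, Hoxb4, Hoxb5, Hoxb6 and Hoxb7, of the D and B clusters. In wild type their changes ran from -0.43 for Hoxb4 to 0.12 for Hoxb7, and none of the 8 was called in the interaction. Hoxd8 read 539, 429 and 530 at 16 weeks and 377, 289 and 260 at 28 weeks (limma adjusted p = 0.00767), with no overlap. Hoxb7 read 761, 713 and 900 at 16 weeks and 621, 408 and 339 at 28 weeks, also with no overlap (limma adjusted p = 0.0325).

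Elf5, a transcription factor of secretory epithelium, read 1678, 1488 and 1738 at 16 weeks and 767, 822 and 549 at 28 weeks (-1.22 ± 0.13, limma adjusted p = 0.00262), with 3 of 3 probes called. Wild type went from 3355 to 2061. Plau, the urokinase plasminogen activator, showed a log2 change of -1.24 (limma adjusted p = 0.0065) and of -0.81 in wild type. Of 13 genes of the Klk1 family measured 2 fell and 0 rose, against 1.05% and 0.838% of all genes. The 2 were Klk1b24 (-0.62, limma adjusted p = 0.00767) and Egfbp2 (-0.30, 0.0241). Klk1, a tissue kallikrein, read 1301 on the vehicle array at 28 weeks and between 136 and 146 on the other 5 TRAMP arrays, and Klk1b5 read 745 there against 139 to 159.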
